A study of Mus musculus with 18 samples.

Results

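Trim17 and 7 genes of neuronal apoptosis were followed in cultured mouse neurons of the dorsal root ganglia (DRG), the clusters of sensory cell bodies along the spinal cord. The genes were Trim17, Mcl1, Bcl2, Bcl2l1, Bcl2l11, Bbc3, Bax and Casp9, taken by symbol from a table of 17198 genes, and all 8 were found in it. Trim17 was selected on a measured value, its higher level in heterozygous cultures at 48 h, so its comparisons that include 48 h cultures are given below as descriptions with no test. The other 7 genes were chosen by function, with earlier results of these data known, and were tested in every comparison. The study comprised 18 RNA samples: 9 from wild-type cultures (WT; labelled Wild type) and 9 from cultures carrying Dynlrb1(tm1a/+) (HET), with 3 biological replicates at each of 12, 24 and 48 h in culture. The product of Dynlrb1 is a dynein light chain, part of the motor complex for transport toward the cell body, and the tm1a allele is a targeted knockout-first allele. No treatment was named for any group, the age of the mice is not given in the sources used here, and the replicate numbers are 1, 2 and 5 at the earlier times but 1, 2 and 3 for the 48 h cultures.

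In neurons, apoptosis is set in motion at the outer membrane of mitochondria by proteins of the BCL2 family. Guardians such as MCL1, BCL2 and BCL-xL (the product of Bcl2l1) hold the effector BAX in check, BH3-only proteins such as BIM (Bcl2l11) and PUMA (Bbc3) bind and neutralise the guardians, and once BAX opens the membrane, cytochrome c released from mitochondria leads to activation of caspase-9. TRIM17 is a RING-type E3 ubiquitin ligase that is induced in several kinds of neuron deprived of survival signals and marks MCL1 for degradation by the proteasome. Young sensory neurons depend on nerve growth factor for survival, and adult ones much less so.

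Values below are the authors' normalized counts unless another scale is named. No sequencing depth can be had from them, and the error given is the spread between the 3 cultures of a group. Nothing in the labels says whether the replicates of a group came from separate animals, and p-values measure the spread between these samples only. Dynlrb1 was lower in each HET culture than in any WT culture of its time, with log2 fold changes of -0.78, -0.86 and -0.84 at 12, 24 and 48 h. Its limma adjusted p was 0.0655, 0.0390 and 0.0501, so it missed the threshold of 0.05 at 12 and 48 h. Averaged over the times it passed (-0.83, limma adjusted p = 2.9e-05). A genotype difference below that did not pass is thus not shown to be absent. All 15 sensory neuron marker genes were measured, and Tubb3 averaged 1132 FPKM (fragments scaled to transcript length and library size) over the 18 samples. Markers of other cells were present as well. Apoe, a marker of satellite glia, averaged 227 FPKM, and the summed normalized count of 7 fibroblast markers was 8792 to 16012 in WT cultures at 12 h and 24415 to 40440 at 48 h. The 5 proliferation markers summed to 364 to 405 in WT at 12 h.

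The HET culture at 48 h numbered replicate 3 stood apart from its group. Across all genes on the log2 scale it correlated with the other 48 h HET cultures at a mean r of 0.981, and with the WT cultures of 24 h at 0.990. Its proliferation markers summed to 445, against 2541 and 1695 in the other 48 h HET cultures and 1709 to 3743 in 48 h WT cultures. Its 7 neutrophil markers summed to 1716, against 122 and 168 in the other 48 h HET cultures. Results of the 48 h HET cultures that its removal changed are given with and without it below, and its part in them beyond those values was not tested.

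Per unit of transcript length, Bax, Mcl1 and Bcl2l1 were the most abundant of the 8 genes. Over the 18 samples the mean FPKM was 53.3 ± 11.5 for Bax, 46.5 ± 7.19 for Mcl1 and 43.0 ± 8.04 for Bcl2l1 (SD, n = 18). These 3 neighbours differed by less than their spread over samples, which includes the changes with time. Bbc3 followed at 20.0 ± 6.38 FPKM, Casp9 at 10.5 ± 1.08 and Bcl2 at 4.37 ± 1.08 (SD, n = 18). At the lower end, Trim17 averaged 2.92 ± 1.79 FPKM and Bcl2l11 2.82 ± 0.42 (SD, n = 18), again closer than their spread. The order changed with time in both genotypes: Mcl1 ranked first at 12 h (52.8 FPKM in WT and 51.9 in HET), and Bax ranked first at 48 h (65.6 FPKM in WT and 50.9 in HET).

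**Figure D1:**
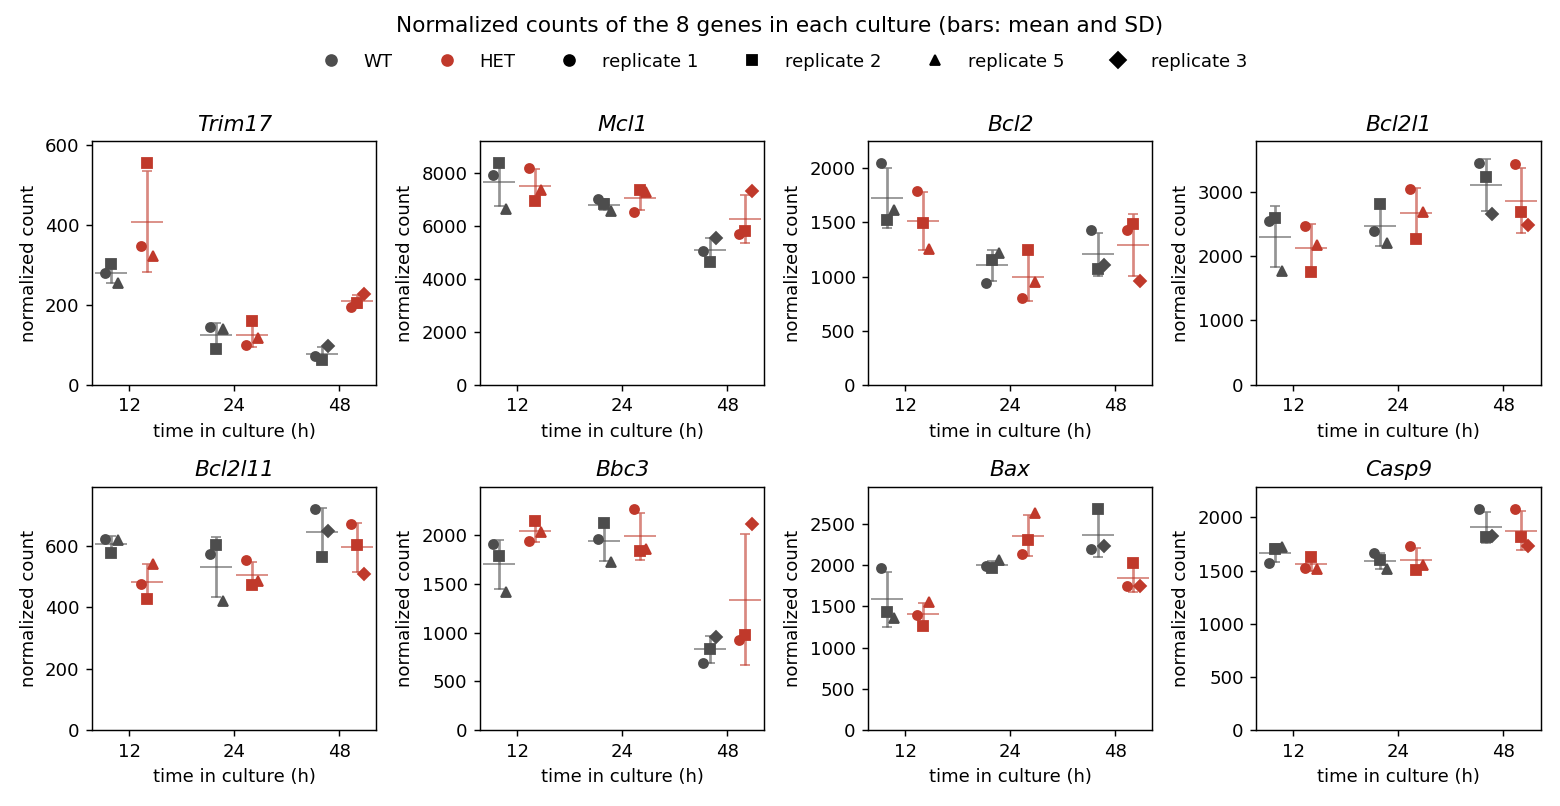
Normalized counts of the 8 genes against time in culture (h), with 1 point per culture, grey for WT and red for HET, marker shapes for replicate numbers, and bars for the mean and SD of 3 cultures. Trim17 in HET lies above WT at 48 h (195 to 227 against 62.1 to 97.4), and HET replicate 3 at 48 h (diamond) lies far above its group for Bbc3 (2112).

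Trim17 (ENSMUSG00000036964; GRCm38 chr11:58954685-58973098, + strand) was highest at 12 h in both genotypes. In WT cultures its normalized count was 281, 303 and 254 at 12 h (replicates 1, 2 and 5), 143, 90.2 and 140.0 at 24 h, and 70.7, 62.1 and 97.4 at 48 h (replicates 1, 2 and 3). In HET cultures it was 348, 553 and 323 at 12 h, 99.2, 159 and 116 at 24 h, and 195, 205 and 227 at 48 h. Thus the genotypes did not overlap at 12 h, overlapped at 24 h and did not overlap at 48 h. Group means were 279 ± 24.8, 125 ± 29.8 and 76.7 ± 18.4 in WT and 408 ± 127, 125 ± 31.0 and 209 ± 16.1 in HET (12, 24 and 48 h in that order; SD, n = 3). Every 48 h HET culture was above every 24 h HET culture, whereas in WT the 24 and 48 h ranges overlapped. In bulk cultures, a lower level per neuron and a smaller share of RNA from neurons cannot be told apart. The summed normalized count of 15 neuron markers was 664614 to 871502 at 12 h, 608721 to 653816 in WT at 48 h and 677848 to 714468 in HET at 48 h, and its part in the Trim17 values was not tested.

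The fall of Trim17 from 12 to 24 h was the largest early change among the 8 genes. In WT, Trim17 fell by 1.18 on the log2 scale (SE 0.24, limma adjusted p = 0.0237), and all 24 h cultures were below all 12 h cultures. Leaving out any of the 6 WT cultures of 12 and 24 h ended this call, with log2 fold changes from -1.30 to -0.97 and limma adjusted p from 0.0522 to 0.0939. In HET, Trim17 fell by 1.69 on the log2 scale (SE 0.24, limma adjusted p = 0.0011), a call that held without any single culture. Between the genotypes, the difference at 12 h was 0.51 (95% interval -0.0029 to 1.02, limma adjusted p = 0.591), or 1.42-fold. At 24 h it was 0.01 (95% interval -0.50 to 0.52, limma adjusted p = 0.99995). As a description of the value that selected it, Trim17 at 48 h was 1.46 higher in HET on the log2 scale (SE 0.24), or 2.74-fold, and 1.40 higher without HET replicate 3. Between 12 and 48 h its log2 difference was -1.87 in WT and -0.92 in HET.

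By a fixed rule, the 5 genes whose log2 values correlated most with Trim17 over the 18 samples, out of 13600 genes averaging 50 or more, were Gprasp1 (Pearson r = 0.983), Hdac11 (0.977), Clasp2 (0.975), Abtb2 (0.968) and Usp20 (0.966). The samples share their groups of genotype and time, so these points are not independent. GPRASP1 sorts G protein-coupled receptors after endocytosis, HDAC11 is a histone deacetylase, CLASP2 stabilises microtubule plus ends and USP20 is a deubiquitinase. The 5 genes were picked for this likeness, 48 h values included, so the shape they share with Trim17 was fixed by the choice and is given as a description. It was a level highest at 12 h, a lower level at 24 h in both genotypes, and at 48 h a group mean below that of 24 h in WT and above it in HET. Gprasp1, for example, had WT means of 12804, 9610 and 7859 and HET means of 14551, 9430 and 11322 at the successive times. Their log2 differences between HET and WT at 48 h were 0.38 (Clasp2) to 0.61 (Hdac11), against 1.46 for Trim17.

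**Figure D2:**
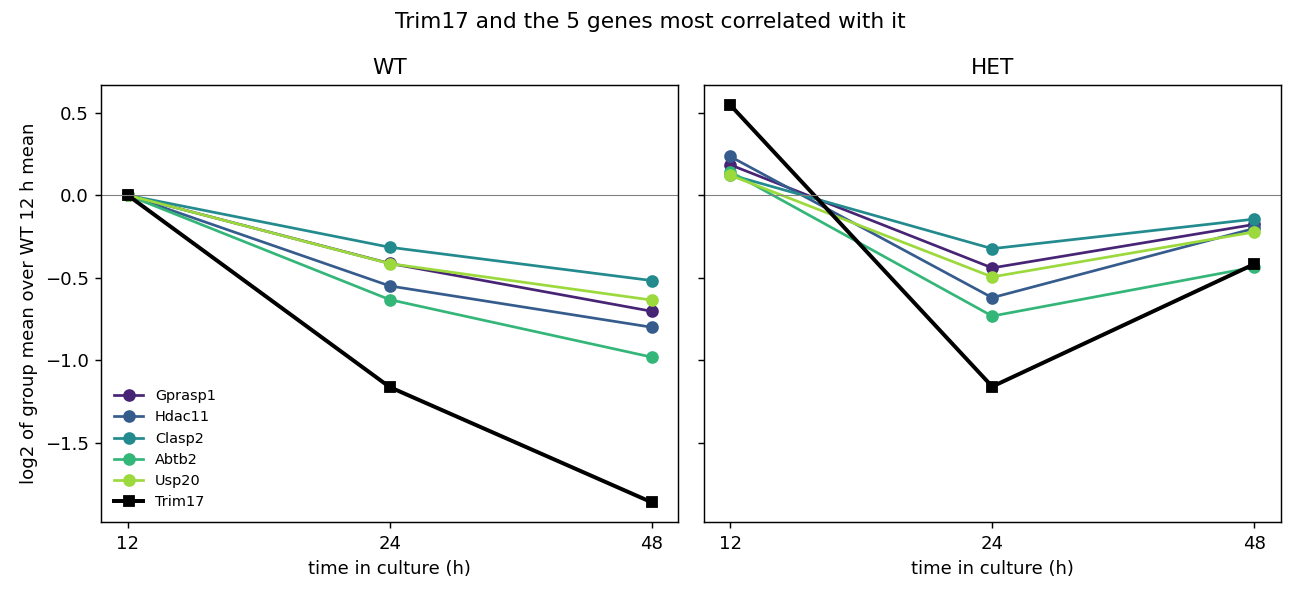
Trim17 (black) and the 5 genes most correlated with it, drawn as the log2 ratio of each group mean of normalized counts to the WT mean at 12 h, against time in culture (h), WT at left and HET at right. In WT every line falls from 12 to 48 h, and in HET every line is lowest at 24 h and higher at 48 h.

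Among the guardians, Mcl1 fell with time in WT and ended higher in HET than in WT. Mcl1 (ENSMUSG00000038612; GRCm38 chr3:95658788-95663176, + strand) encodes the short-lived guardian that TRIM17 targets. In WT its normalized count was 7937, 8364 and 6635 at 12 h, 7011, 6818 and 6585 at 24 h, and 5043, 4654 and 5563 at 48 h. In HET it was 8211, 6936 and 7373 at 12 h, 6539, 7363 and 7298 at 24 h, and 5692, 5816 and 7313 at 48 h. All 48 h WT cultures were thus below all other cultures of either genotype, and the HET culture nearest to them exceeded the highest of them by a small margin. The log2 fold change over the whole interval, 12 to 48 h, was -0.58 in WT (SE 0.11, limma adjusted p = 4.8e-04) and -0.26 in HET (SE 0.11, limma adjusted p = 0.107). Without HET replicate 3 of 48 h, Mcl1 fell in HET as well, by 0.38 on the log2 scale (limma adjusted p = 0.0137). The genotype difference at 48 h was 0.30 (95% interval 0.07 to 0.53, limma adjusted p = 0.130), and 0.18 without HET replicate 3. The difference between the genotypes in the 12 to 48 h change was 0.32 (limma adjusted p = 0.556).

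Bcl2 (ENSMUSG00000057329; GRCm38 chr1:106538178-106714274, - strand) encodes the founding guardian of the family. It was highest at 12 h, at 2045, 1522 and 1612 in WT and 1790.2, 1498 and 1254 in HET. At 24 h it was 945, 1156 and 1217 in WT and 806, 1244 and 952 in HET, with every 24 h culture below every 12 h culture of its genotype. From 12 to 24 h the log2 fold change was -0.61 in HET (limma adjusted p = 0.0391) and -0.64 in WT (limma adjusted p = 0.0746). The HET call was lost without replicate 1 or 2 of 12 h or without replicate 1 or 5 of 24 h, with limma adjusted p from 0.107 to 0.161. By 48 h Bcl2 was 1435, 1068 and 1109 in WT and 1431, 1486 and 959 in HET. Against 12 h this was a log2 fold change of -0.52 in WT (limma adjusted p = 0.0371), and of -0.24 in HET (limma adjusted p = 0.417). Without HET replicate 3 of 48 h, the HET change was -0.04, and the genotype difference at 48 h went from 0.09 to 0.29. The WT call was lost without replicate 1 or 5 of 12 h or replicate 2 or 3 of 48 h, with limma adjusted p from 0.0546 to 0.149.

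Bcl2l1 (ENSMUSG00000007659; GRCm38 chr2:152780668-152831728, - strand), whose main product in neurons is the guardian BCL-xL, went the other way from Mcl1 and Bcl2. Its mean was 2301 ± 467 at 12 h and 3100 ± 408 at 48 h in WT (SD, n = 3), and 2128 ± 361 and 2860 ± 499 in HET (SD, n = 3). The log2 change over this time was 0.44 in WT (SE 0.17, limma adjusted p = 0.0446) and 0.43 in HET (SE 0.17, limma adjusted p = 0.101). The WT call was lost without replicate 5 of 12 h (0.26, limma adjusted p = 0.237), without replicate 1 of 48 h (0.36, adjusted p = 0.147) and without replicate 2 of 48 h (0.41, adjusted p = 0.119). It was also lost on the authors' plain adjusted columns (0.34, limma adjusted p = 0.124) and after quantile normalization (0.39, limma adjusted p = 0.0612), and without HET replicate 3 the HET change was 0.52 (limma adjusted p = 0.0486). The genotypes overlapped at every time.

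**Figure D3:**
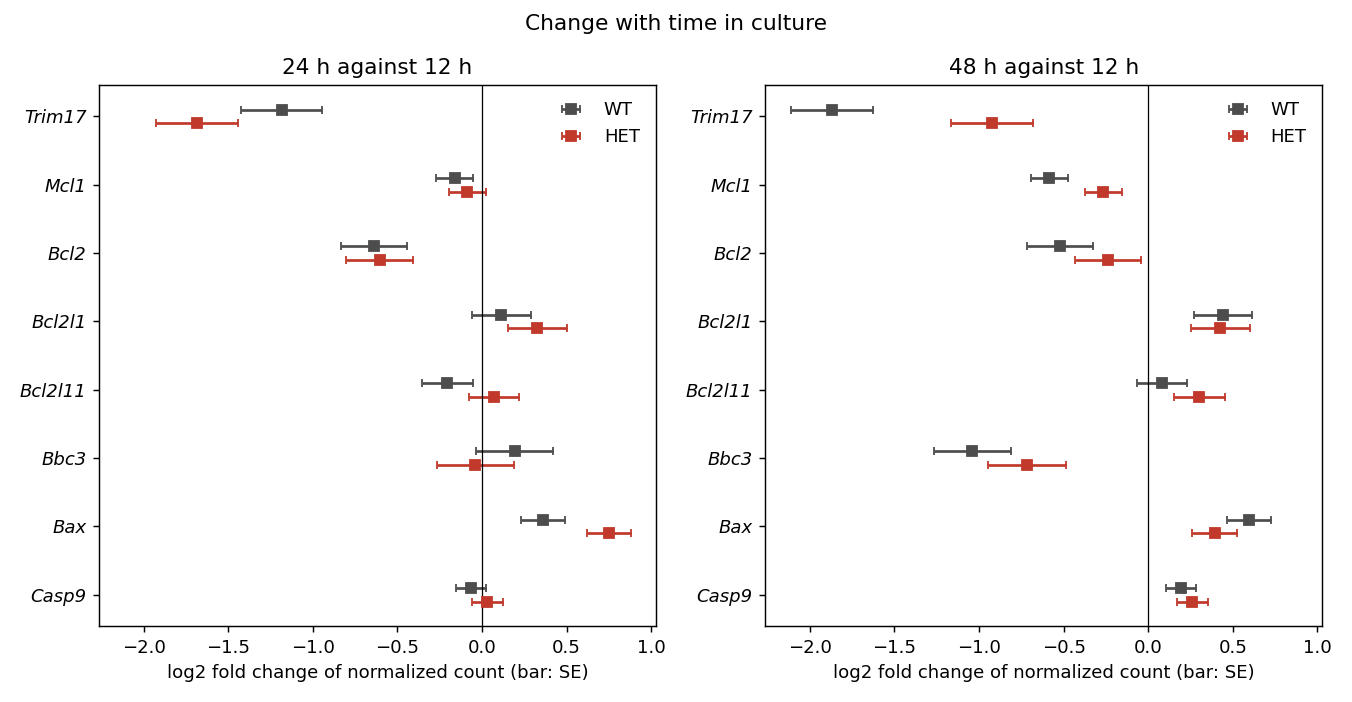
Log2 fold change of normalized counts for the 8 genes from 12 to 24 h (left) and from 12 to 48 h (right), grey for WT and red for HET, with bars for the SE. Trim17 lies lowest in both panels (-1.18 and -1.69 at left), Mcl1 and Bbc3 lie below 0 at right in both genotypes, and Bax and Bcl2l1 lie above 0.

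Of the BH3-only genes, Bbc3 fell late while Bcl2l11 varied little. Upstream windows of both are shown because BIM and PUMA are known to be switched on transcriptionally in stressed neurons, BIM by JUN and FOXO factors and PUMA by p53, and the window of Bax, a known p53 target, is shown for the same reason. RefSeq's table for GRCm38.p6 matched 7 of the 8 genes, Trim17 not among them. The 250 bases before a single start of each, that nearest the gene's RefSeq start, were searched on both strands. Bbc3 and Bcl2l1 had 3 entries each and Bcl2l11 had 2, and matches before their other starts are not reported. The motifs searched were TGANTCA (AP-1), TGACGTCA (CRE), GTAAACA (FOXO) and the p53 half-site, which 6.75%, 1.55%, 3.17% and 7.13% of 32841 windows of this length held. Among the 7 genes there were 2 matches, which did not overlap another motif and are printed in capitals: GTAAACA before Bcl2l11, starting 227 bases before the start site, and a p53 half-site, AGGCAAGCTT, before Bax, starting 201 bases before it. The windows are at chr2:128125788-128126037 (+ strand) for Bcl2l11, chr7:16309333-16309582 (+ strand) for Bbc3 and chr7:45466899-45467148 (- strand) for Bax.
Bcl2l11: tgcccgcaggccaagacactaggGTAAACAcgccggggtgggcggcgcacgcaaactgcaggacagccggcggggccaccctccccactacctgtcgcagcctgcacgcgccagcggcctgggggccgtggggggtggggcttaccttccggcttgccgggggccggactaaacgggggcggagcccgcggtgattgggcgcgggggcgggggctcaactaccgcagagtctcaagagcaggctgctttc
Bbc3: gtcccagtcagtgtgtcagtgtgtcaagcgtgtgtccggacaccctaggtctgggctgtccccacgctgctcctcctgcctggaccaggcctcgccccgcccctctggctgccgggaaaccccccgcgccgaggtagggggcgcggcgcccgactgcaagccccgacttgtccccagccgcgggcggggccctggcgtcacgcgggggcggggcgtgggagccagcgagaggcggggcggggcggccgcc
Bax: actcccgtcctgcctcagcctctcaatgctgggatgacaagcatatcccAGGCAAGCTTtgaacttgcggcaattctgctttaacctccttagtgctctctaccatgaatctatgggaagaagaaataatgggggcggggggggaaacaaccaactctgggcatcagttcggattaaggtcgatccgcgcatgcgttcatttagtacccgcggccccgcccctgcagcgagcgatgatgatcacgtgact
A match is a stretch of letters and not a shown binding site. Only exact matches to the motif letters were counted, and near matches were not searched. A window without a match, such as that of Bbc3, is therefore not shown to lack a binding site.

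Bcl2l11 (ENSMUSG00000027381; GRCm38 chr2:128126038-128162547, + strand), the gene of BIM, passed the test in none of the 9 comparisons. At 12 h it was lower in HET (475, 426 and 542) than in WT (621, 576 and 620.2), with no overlap. The log2 difference at 12 h was -0.34 (95% interval -0.65 to -0.02, limma adjusted p = 0.579). At 24 h the groups overlapped, at 419 to 601 in WT and 473 to 553 in HET, and likewise at 48 h, at 563 to 719 in WT and 509.6 to 671 in HET. The 12 to 48 h change was 0.08 in WT (limma adjusted p = 0.681) and 0.30 in HET (limma adjusted p = 0.173).

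Bbc3 (ENSMUSG00000002083; GRCm38 chr7:16308393-16318205, + strand), the gene of PUMA, dropped between 24 and 48 h. In WT it was 1904, 1782 and 1418 at 12 h, 1961, 2127 and 1725 at 24 h, and 689, 837 and 957 at 48 h. In HET it was 1939, 2145 and 2027 at 12 h, 2267, 1841 and 1861 at 24 h, and 919.6, 978 and 2112 at 48 h. Replicate 3 of the 48 h HET cultures thus stayed at the level of the earlier times, while the other 5 cultures of 48 h were below every earlier culture. From 12 to 48 h Bbc3 fell by 1.04 on the log2 scale in WT (SE 0.23, limma adjusted p = 0.0015) and by 0.72 in HET (SE 0.23, limma adjusted p = 0.0459). Without HET replicate 3 of 48 h, the fall in HET was by 1.10 (SE 0.15, limma adjusted p = 1.9e-04). The HET call was lost without replicate 1, 2 or 5 of 12 h or replicate 1 or 2 of 48 h, with limma adjusted p from 0.0842 to 0.223.

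Between the genotypes, Bbc3 was higher in all HET cultures than in all WT cultures at 12 h, where the log2 difference was 0.27 (95% interval -0.21 to 0.75, limma adjusted p = 0.717). At 24 h the genotypes overlapped. At 48 h the difference was 0.59 (95% interval 0.11 to 1.08, limma adjusted p = 0.144), or 1.51-fold. With the replicate number as a block, which pairs the 48 h cultures, limma's adjusted p was 0.0278. Leaving out HET replicate 3 gave a difference of 0.21 (limma adjusted p = 0.640), and 0.32 with the block (limma adjusted p = 0.231), so the blocked call rested on that culture. The authors' deposited table lists Bbc3 at 48 h with a log2 fold change of 0.69 and an FDR of 0.0413.

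Bax (ENSMUSG00000003873; GRCm38 chr7:45461697-45466898, - strand), which encodes the effector that permeabilises mitochondria, rose in both genotypes, with a call at 48 h in WT and at 24 h in HET. The difference between the genotypes in the 12 to 24 h change was not tested. In WT it was 1962, 1427 and 1358 at 12 h, 1992, 1957 and 2057 at 24 h, and 2193, 2676 and 2231 at 48 h. In HET it was 1390.3, 1263 and 1549 at 12 h, 2135, 2307 and 2624 at 24 h, and 1750.4, 2019 and 1739 at 48 h. The WT mean thus climbed at each step (1582 ± 331, 2002 ± 50.5 and 2366 ± 268), and the HET mean was highest at 24 h (1401 ± 143, 2355 ± 248 and 1836 ± 159; SD, n = 3). From 12 to 24 h the log2 change was 0.75 in HET (SE 0.13, limma adjusted p = 0.0021) and 0.36 in WT (SE 0.13, limma adjusted p = 0.121), where leaving out replicate 1 of 12 h gave 0.52 (limma adjusted p = 0.0475). Over 12 to 48 h it was 0.59 in WT (SE 0.13, limma adjusted p = 0.0016) and 0.39 in HET (SE 0.13, limma adjusted p = 0.0535). Without HET replicate 3 of 48 h the HET change was 0.43 (limma adjusted p = 0.0378), and without HET replicate 5 of 12 h it was 0.47 (limma adjusted p = 0.0499).

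Genotype differences in Bax had opposite signs at 24 and 48 h. Every HET culture was above every WT culture at 24 h, by a log2 difference of 0.23 (95% interval -0.05 to 0.51, limma adjusted p = 0.99995). At 48 h every HET culture was below every WT culture, by a log2 difference of -0.36 (95% interval -0.64 to -0.09, limma adjusted p = 0.122), and -0.33 without HET replicate 3. Neither difference passed the threshold.

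Casp9 (ENSMUSG00000028914; GRCm38 chr4:141793612-141815976, + strand), the initiator caspase of the mitochondrial pathway, had the smallest spread of the 8 genes relative to its mean. Its values ran from 1503 to 1728 over the cultures of 12 and 24 h in both genotypes and from 1729 to 2078 at 48 h, so every 48 h culture lay above every earlier one. The 12 to 48 h change was 0.19 in WT (95% interval 0.0012 to 0.39, limma adjusted p = 0.0906) and 0.26 in HET (95% interval 0.07 to 0.45, limma adjusted p = 0.0618). Without HET replicate 3 of 48 h, the HET change was 0.32 (limma adjusted p = 0.0233). Genotypes overlapped at each time, and the difference at 48 h was -0.03 (95% interval -0.22 to 0.17), and 0.03 without HET replicate 3.

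**Figure D4:**
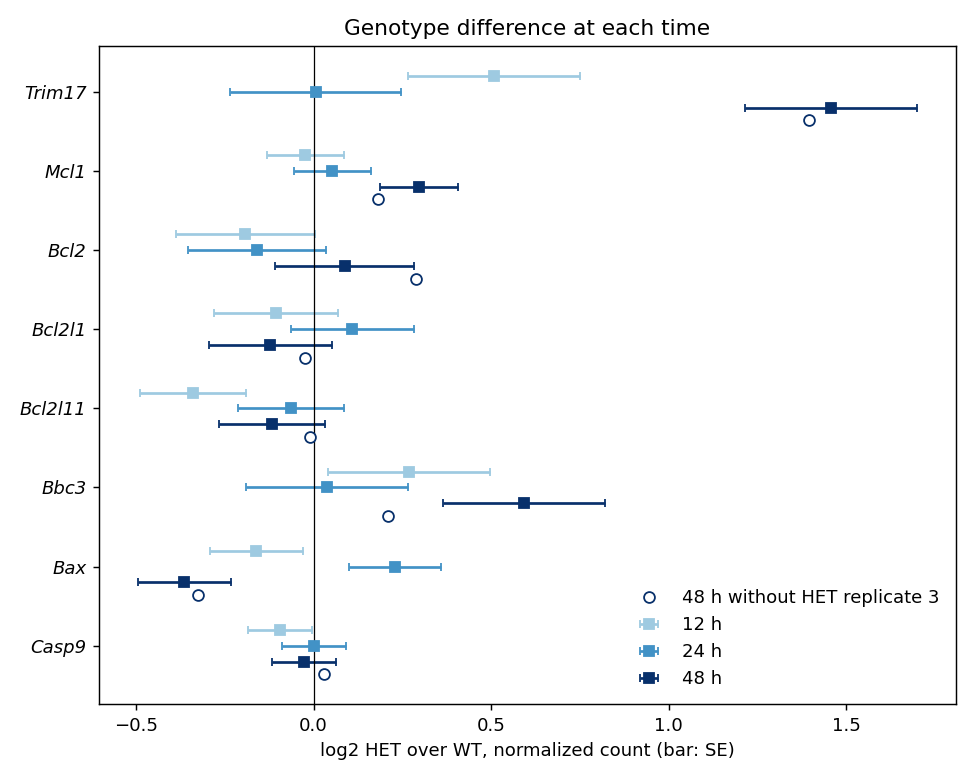
Log2 ratio of HET to WT normalized counts for each gene at 12, 24 and 48 h (light to dark squares, bars for the SE), with open circles for 48 h without HET replicate 3. The values of Bbc3 (0.59) and Mcl1 (0.30) at 48 h move toward 0 without that culture, to 0.21 and 0.18, whereas Trim17 moves from 1.46 to 1.40 and Bax from -0.36 to -0.33. Bcl2 moves away from 0, from 0.09 to 0.29.

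Counted over the set, no genotype difference passed limma's threshold of an adjusted p under 0.05 without the block, and few genes of the whole table did. At 12 h, 0 of 8 passed, with 1 at an unadjusted p under 0.05, against 0.00581% of 17198 genes past the threshold. At 24 h, 0 of 8 passed and 0 had an unadjusted p under 0.05, again against 0.00581%. For the 48 h comparison, 0 of 7 passed and 3 (Mcl1, Bbc3 and Bax) had an unadjusted p under 0.05, against 0% of all genes past the threshold, although 3782 genes (22%) had an unadjusted p under 0.05. That 0% depends on the cultures fitted: it became 5.41% without WT replicate 3, 4.28% without HET replicate 1 and 2.98% without HET replicate 2 of 48 h, with 0 of the 7 genes past the threshold each time. It depends on the scaling too: after quantile normalization 276 of the 17198 genes passed, again with 0 of the 7. The authors' deposited table has 1028 genes at an FDR under 0.05 in this comparison. With the replicate block at 48 h, 1 of 7 passed (Bbc3) against 12.3% of all genes. In the average over the 3 times, 0 of 7 passed (1 unadjusted) against 0.0174%, and for the genotype difference in the 12 to 48 h change 0 of 7 passed (0 unadjusted) against 0%. HET and WT cultures did not overlap for 3 of 8 genes at 12 h (Trim17 and Bbc3 higher in HET, Bcl2l11 lower), for 1 of 8 at 24 h (Bax higher) and for 3 of 8 at 48 h (Trim17 and Mcl1 higher, Bax lower). Among all genes the groups did not overlap for 15.1%, 5.6% and 24% at these times, and the 48 h count includes Trim17, which was selected there.

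Time in culture changed more of the genes, as it did in the table as a whole. In WT, 1 of 8 passed from 12 to 24 h (Trim17, lower) against 3.62% of all genes, a share that fell to 0% without replicate 2 of 12 h or any 1 of the 24 h cultures. From 12 to 48 h in WT, 5 of 7 passed, with Bax and Bcl2l1 higher and Mcl1, Bcl2 and Bbc3 lower, against 47.1% of all genes. The count was 3 without replicate 5 of 12 h (against 40.6% of all genes) or without replicate 2 of 48 h (against 35.1%). In HET, 3 of 8 passed from 12 to 24 h (Bax higher, Trim17 and Bcl2 lower) against 18.9%. From 12 to 48 h in HET, 1 of 7 passed (Bbc3, lower) against 14.2%, and 5 of 7 passed without HET replicate 3 of 48 h, against 28.4% of all genes in that fit. The median log2 change of the 7 genes from 12 to 48 h was 0.08 in WT and 0.26 in HET, beside 0.11 and 0.10 over all genes. On the authors' plain adjusted columns the medians over all genes were 0.0069 and 0.0075, and the genes past the threshold in WT were 4177 higher and 3760 lower, in place of 5152 and 2946. In HET the split was 999 higher and 926 lower on those columns, in place of 1820 and 622.

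The wider death and survival machinery was described with 10 lists that hold 109 measured genes, 7 of the 8 genes above among them. In WT from 12 to 48 h, 28 of these genes rose and 18 fell, 42.2% of the 109, near the 47.1% of all genes. The split between directions depended on the scaling, at 23 higher and 24 lower on the plain adjusted columns, where none of the 46 changed sign. The BH3-only list changed most fully: 5 of its 8 genes rose and 2 fell, with a median log2 change of 0.70 against 0.11 for all genes. Hrk, the gene of harakiri, which is induced in neurons deprived of growth factor, rose by 2.63 (SE 0.37, limma adjusted p = 6.9e-05) on the log2 scale. Pmaip1, which encodes NOXA, a BH3-only protein that binds MCL1, rose by 2.39 (SE 0.29, limma adjusted p = 3.2e-05). Bik fell by 0.90 (SE 0.28), beside Bbc3, a call lost without replicate 1 of 12 h or replicate 2 of 48 h (limma adjusted p up to 0.0900). Of the 3 effectors, Bok (1.06, SE 0.24) rose with Bax, and the third did not pass. Of 6 measured guardians, Bcl2l1 rose, Mcl1 and Bcl2 fell and 3 did not pass.

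In the same WT comparison, 5 of 15 caspase and apoptosome genes rose and 2 fell. They included Htra2, a mitochondrial protease (0.65, SE 0.12), which rose, and the inflammatory caspase gene Casp4 (-1.24, SE 0.34) and Casp12 (-0.98, SE 0.33), which fell. The Casp12 call was lost without replicate 2 or 5 of 12 h or replicate 2 of 48 h (limma adjusted p up to 0.0801). Of 8 caspase inhibitor genes, Birc5 rose by 1.57 (SE 0.31) and Naip1 fell by 1.82 (SE 0.39). Birc5, the gene of survivin, is also a proliferation marker, and Naip1 belongs to a family of near-identical copies whose reads the counting may have split. Among 13 genes of p53 and its targets, 4 rose and 2 fell. Phlda3 (1.53, SE 0.22) and Ccng1 (0.98, SE 0.13), both direct p53 targets, rose, and Sesn2 (-1.59, SE 0.26) and Trp53inp1 (-0.88, SE 0.27), stress-induced genes that p53 also targets, fell. Of 18 genes of the JNK stress pathway, 2 rose and 4 fell, among them Mapk10, which encodes the neuronal kinase JNK3 (-0.79, SE 0.11), and its substrate gene Jun (-0.62, SE 0.10).

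Receptor and ligase lists changed in part. Of 11 death receptor genes in WT from 12 to 48 h, 3 rose, including Ripk3 (1.30, SE 0.37) and the adaptor gene Fadd (1.21, SE 0.24), and 2 fell, namely the neurotrophin receptor gene Ngfr (-1.14, SE 0.15) and Fas (-0.94, SE 0.25). Of 17 genes that encode TRIM17 partners or act in MCL1 turnover, 4 rose and 2 fell. Nfatc2, whose relatives NFATc3 and NFATc4 bind TRIM17, fell by 1.79 (SE 0.29), and Huwe1, another MCL1 ligase, fell by 0.52 (SE 0.21). Gsk3a (0.52, SE 0.10) and Btrc (0.36, SE 0.09), which act together in marking phosphorylated proteins for degradation, rose. Of 10 TRIM genes related to Trim17, Trim15 (1.33, SE 0.46) rose and Trim72 (-1.20, SE 0.26) fell, and 8 did not pass. The calls of Huwe1 and Trim15 were each lost without replicate 5 of 12 h or replicate 2 or 3 of 48 h (limma adjusted p up to 0.276 and 0.147). Markers of other cells moved over the same interval in WT, and their part in the changes of all these lists, Naip1, Casp4 and Casp12 included, was not tested. All 5 proliferation markers and 5 of 7 fibroblast markers rose, as did 2 of 7 macrophage markers, whose sum went from 1110 to 1443 at 12 h to 2168 to 3735 at 48 h. Neutrophil markers fell (5 of 7, median log2 change -3.05), from sums of 181 to 5895 at 12 h to 90.0 to 137 at 48 h. Both measured red cell markers fell (median -4.47), and so did 3 of 6 endothelial markers. Of 12 satellite glia and Schwann cell markers 4 fell and 2 rose, and of 15 sensory neuron markers 8 fell and 4 rose.

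Between 12 and 24 h, a small number of listed genes passed the test, among them Pmaip1, Phlda3 and Apaf1 in both genotypes. Of the BH3-only list 2 of 8 genes rose in HET and 1 of 8 in WT, of the caspase and apoptosome list 4 of 15 and 1 of 15, and of the p53 list 5 of 13 and 3 of 13. In all, 18 of the 109 genes rose and 5 fell in HET (21.1%, against 18.9% of all genes), and 6 rose and 1 fell in WT (6.42%, against 3.62%); the difference between the genotypes in this change was not tested. Leaving out 1 culture lowered the WT calls and the share of all genes alike. Without replicate 2 of 12 h, or without any 1 of the 24 h cultures, 0 of the 109 and 0% of all genes passed. Without replicate 5 of 12 h 1 passed (0.917%, against 0.494% of all genes), and without replicate 1 of 12 h 4 passed (3.67%, against 1.15%). In HET, 12 passed without replicate 2 of 12 h (11%, against 6.63% of all genes) and 15 without replicate 5 of 24 h (13.8%, against 10.7%). Pmaip1 rose over these hours by 2.12 in HET (SE 0.29, limma adjusted p = 8.9e-04) and by 1.48 in WT (SE 0.29, limma adjusted p = 0.0222). Phlda3 rose by 1.62 in HET (SE 0.22) and by 1.07 in WT (SE 0.22), and Apaf1, the scaffold of the apoptosome, by 0.59 in HET and 0.51 in WT (SE 0.13 each). Leaving out 1 culture ended the WT call of Pmaip1 and of Phlda3 in 5 of 6 cases and that of Apaf1 in 6 of 6, with limma adjusted p up to 0.0939, 0.0963 and 0.141. In HET the calls of Pmaip1 and Phlda3 held in 6 of 6 cases, and that of Apaf1 was lost without replicate 2 of 12 h (limma adjusted p = 0.0524). Cdkn1a, a p53 target that arrests the cell cycle, rose in HET (0.77, SE 0.25), a call lost without replicate 2 or 5 of 12 h or replicate 1 or 5 of 24 h (limma adjusted p up to 0.227). By 48 h in HET, against 12 h, 11 genes of the 109 rose and 7 fell (16.5%, against 14.2%), and on the plain adjusted columns 6 rose and 10 fell. Without HET replicate 3 of 48 h, 27 rose and 15 fell (38.5%, against 28.4% of all genes). Without replicate 2 of 12 h, or replicate 1 or 2 of 48 h, 0 of the 109 and 0% of all genes passed. Without replicate 1 of 12 h 7 passed (6.42%, against 6.53% of all genes). Hrk (1.41, SE 0.37), Pmaip1 (1.29, SE 0.29) and Bid (0.40, SE 0.11) of the BH3-only list rose, and without HET replicate 3 the rises were 1.77 for Hrk and 1.46 for Pmaip1.

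**Figure D5:**
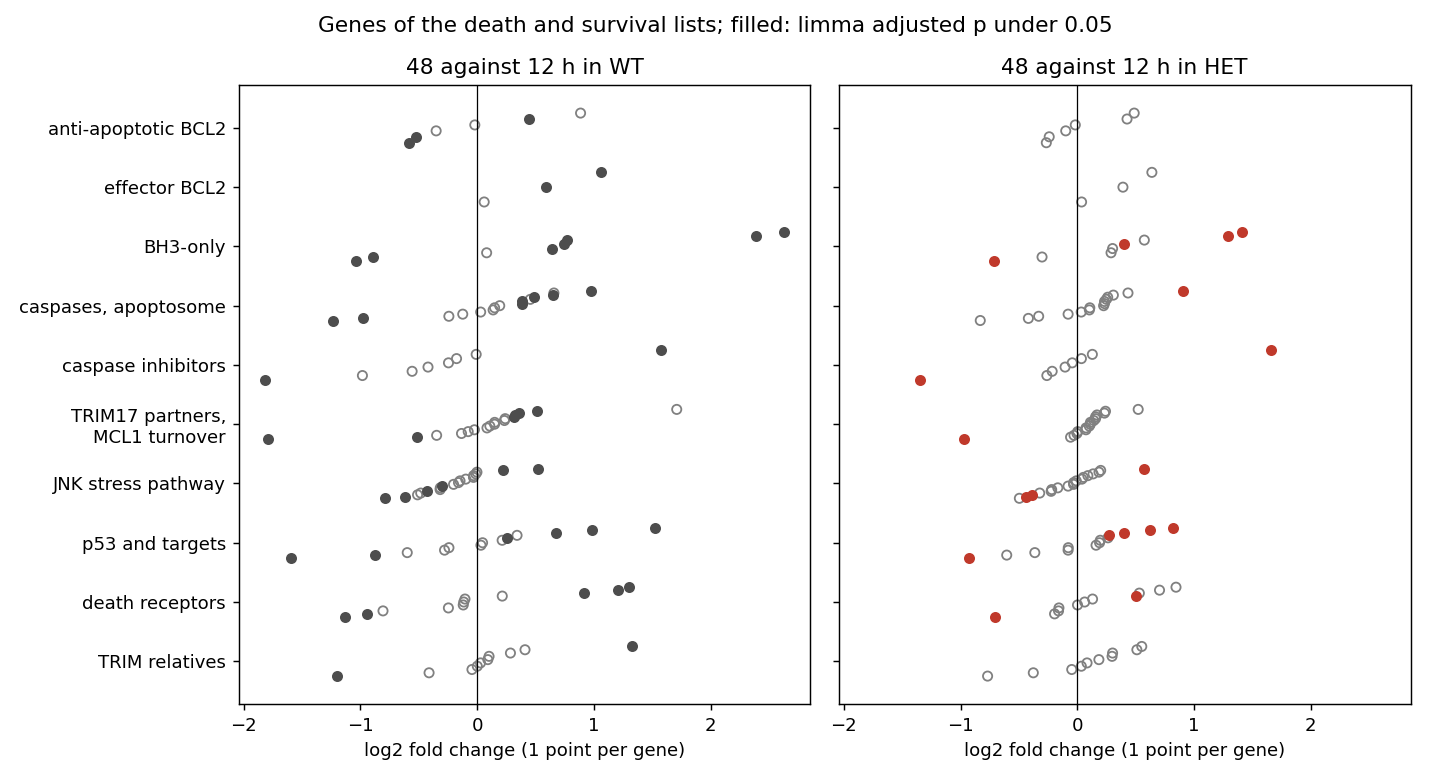
Log2 fold change from 12 to 48 h of every measured gene in the 10 lists (1 point per gene), WT at left and HET at right, filled where limma's adjusted p was under 0.05. In WT, Hrk (2.63) and Pmaip1 (2.39) are the rightmost BH3-only points, and in HET they lie at 1.41 and 1.29.

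Between the genotypes at 48 h, 0 of the 109 listed genes passed limma's threshold without the block, and 26 (23.9%, against 22% of all genes) had an unadjusted p under 0.05. After quantile normalization, without the block, 2 of the 109 passed, both lower in HET, beside 276 of all genes. Without the block, 6 passed on leaving out WT replicate 3 (5.5%, against 5.41% of all genes). Without HET replicate 1 it was 5 (4.59%, against 4.28%), and without HET replicate 2 it was 2 (1.83%, against 2.98%). With the replicate block, 11 passed (10.1%, against 12.3% of all genes), 3 higher and 8 lower in HET. Pmaip1 was 1554, 2998 and 1577 in WT and 700.2, 849 and 535 in HET, so every HET culture lay below every WT culture. The log2 difference for Pmaip1 was -1.51 (blocked SE 0.24, limma adjusted p = 0.0030 with the block). Hrk was 525, 841 and 307 in WT and 258, 233 and 116 in HET, again without overlap, with a difference of -1.42 (blocked SE 0.21, limma adjusted p = 0.0023). Phlda3 was 3646, 6418 and 3116 in WT and 2053, 2693 and 2002 in HET, a difference of -0.91 (blocked SE 0.14, limma adjusted p = 0.0025). The other lower genes were Ccng1 (-0.46), Htra2 (-0.42), Fadd (-0.69), Tradd (-0.44) and Gsk3a (-0.27), and those higher were Bbc3 (0.59), Sesn2 (0.67) and Mapk10 (0.38).

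Without HET replicate 3 of 48 h, 5 of the 109 genes passed the blocked test (3.86% of all genes did). Pmaip1 (-1.48, limma adjusted p = 0.0253), Hrk (-1.43, limma adjusted p = 0.0175), Phlda3 (-1.04, limma adjusted p = 0.0104) and Ccng1 (-0.56, limma adjusted p = 0.0125) were still lower in HET, and Foxo3, a FOXO transcription factor gene, was higher (0.39, limma adjusted p = 0.0487). The differences of Bbc3 and Sesn2 dropped to 0.32 and 0.32 in that fit and did not pass (limma adjusted p = 0.231 and 0.147). The other 5 genes kept their sign and did not pass either: Mapk10 (0.37), Htra2 (-0.35), Fadd (-0.62), Tradd (-0.44) and Gsk3a (-0.23).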

How the data were processed

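RNA from 18 DRG neuron cultures was sequenced, and a single deposited table was analysed. Per the submitters' processing notes, CASAVA 1.8.2 and edgeR were used with genome build mm10; aligner and annotation are not given in the sources used here. Per the file headers, the values used were the authors' normalized counts, a per-sample signal with totals of 41509700 to 41509900, no 0 and no whole number, so count tests were not run. The authors' plain adjusted signal columns, with totals of 39465700 to 44213500, served as an alternative. Their logarithms spanned 15 of 17 possible dimensions, so 2 directions among samples had been removed by a step not given in the sources used here. The authors' deposited FPKM values were used for levels between genes. The authors' deposited log2 fold changes, p-values and FDR are quoted where named, while their deposited score for ranking genes was left aside.

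Normalized counts were transformed to log2(value + 1). A minimum mean of 1 removed 0 of 17198 genes. All 18 samples entered a single fit with 6 group means in limma 3.58.1 (R 4.3.3; lmFit, eBayes with trend, 12 residual and 4.97 prior degrees of freedom), two-sided, with Benjamini-Hochberg adjustment over all genes within each of 9 comparisons and a threshold of 0.05. Log2 fold changes understate changes of low genes, and 95% intervals use limma's moderated degrees of freedom. The fit was checked on simulated data. The members and lists were chosen with earlier results of these data known. All 8 genes are named, with Dynlrb1, the 5 genes most correlated with Trim17, and up to 4 genes per list and comparison that passed with the largest change; Foxo3 was named after its value was seen. A result that this rule would name is not reported here. Same-numbered cultures of the 2 genotypes were taken as paired where at least 3 pairs all had deviations from their group means that correlated over 0.1. This held for HET against WT at 48 h only (r = 0.32, 0.21 and 0.46; numbers from the sample titles). Gene positions are from GENCODE M21 on GRCm38 (mm10).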

Additional observations from a re-analysis of the deposited data

Results flagged for a closer look

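Bax had genotype differences of opposite sign at 24 and 48 h. Every HET culture was above every WT culture at 24 h (log2 difference 0.23) and every HET culture was below every WT culture at 48 h (log2 difference -0.36). The difference between these times was not tested, and neither value passed limma's threshold (adjusted p = 0.99995 and 0.122).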

How the results depend on the processing

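A pseudocount of 0.1, a minimum mean of 5 and no filter on low values changed no call or direction of the 8 genes in any comparison. Depth is unknown, and 3 cultures per group, fitted with 12 residual degrees of freedom although 2 directions had been removed from the values, limit the precision. For HET against WT at 12 h, 24 h and averaged over times, and for the genotype difference in change, 0 genes passed under every alternative run. The fit with the 2 removed directions as covariates and the blocked fit without HET 48 h replicate 3 were chosen after seeing the data. Of the results for single genes, 1070 values counted as unchanged, 15 newly passed, 29 no longer passed and 46 changed sign, and the cause was not tested. Unchanged meant the same direction and call. For the Trim17 comparisons given with no test, it meant a shift smaller than the pooled SD within groups.

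The replicate numbers paired the cultures only for HET against WT at 48 h. There the block gave 1 passing gene (Bbc3) in place of 0, and changed no other call of the 8 genes. Elsewhere the cultures share only a number: correlations of same-numbered deviations lay between 0.03 and 0.19 for the genotypes at 12 h, between -0.21 and 0.26 at 24 h, and, for the 12 to 24 h change, between -0.20 and 0.16 (WT) and between 0.03 and 0.36 (HET). Of 6 cultures, 5, 3, 4 and 3 correlated best with their own number in these comparisons, and comparisons of 48 with 12 h share 2 numbers. The replicate block there gave 2 passing genes for the 12 to 24 h change in WT (1 without it), 4 for the 12 to 48 h change in HET (1 without it), and a Bcl2l11 change of -0.0006 over 12 to 48 h in WT. The share of all genes passing in these blocked fits is not given here, so the counts cannot be set against it. For single genes there, Bcl2 passed over 12 to 24 h in WT (adjusted p = 0.0371) and no longer passed over 12 to 48 h (0.0815), Bcl2l1 passed over 12 to 24 h in HET (0.0190), and Mcl1, Bcl2l1 and Bax passed over 12 to 48 h in HET.

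For 24 against 12 h in WT, 2 genes passed when only the samples compared were fitted and 2 with the removed directions as covariates. For 48 against 12 h in HET, 2 passed on the plain adjusted columns, where 1925 of all 17198 genes did, and 0 when only the samples compared were fitted. Shares of all genes for the fits of only the samples compared and with covariates are not given here. Leaving out each culture in turn gave 0 to 1 passing genes for the WT change to 24 h, 3 to 5 for the WT change to 48 h and 0 to 5 for the HET change to 48 h, the 5 being without HET replicate 3. Beside these, 0% to 1.15%, 35.1% to 44.6% and 0% to 28.4% of all genes passed.

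Changes of sign were confined to log2 differences that did not pass. The plain adjusted columns gave Casp9 -0.0017 (genotypes, 24 h), 2e-04 (genotypes, 48 h) and -0.0256 (HET change to 24 h), and Bcl2l11 -0.025 (WT change to 48 h). Quantile normalization gave -0.0162, 0.0174, -0.065 and -0.1263 for the same 4 values, and Bcl2l11 -0.0667 (HET change to 24 h). The covariates gave Bbc3 -0.173 at 24 h and 0.0125 (HET change to 24 h), Bcl2l11 0.0119 at 24 h and Bcl2 -0.0346 at 48 h. Leaving out each culture in turn, the genotype difference at 12 h ran from -0.1218 to 0.0452 for Mcl1, -0.2871 to 0.0281 for Bcl2l1 and -0.2617 to 0.0038 for Bax. At 24 h it ran from -0.0577 to 0.0428 for Casp9, -0.061 to 0.1065 for Bbc3, -0.2249 to 0.0343 for Bcl2l11 and -0.2099 to 0.156 for Trim17. At 48 h it ran from -0.1041 to 0.036 for Casp9 and -0.0266 to 0.2889 for Bcl2, and averaged over times from -0.1 to 0.005 for Bcl2l1. The change from 12 to 24 h ran from -0.0674 to 0.2117 for Bcl2l1 in WT, and in HET from -0.0128 to 0.1608 for Bcl2l11, -0.0273 to 0.0732 for Casp9 and -0.1371 to 0.0131 for Bbc3. From 12 to 48 h in WT, Bcl2l11 ran from -0.002 to 0.1747. The genotype difference in the 12 to 48 h change ran from -0.1526 to 0.1656 for Bcl2l1, -0.0094 to 0.1308 for Casp9 and -0.0606 to 0.5387 for Bbc3.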
